A study of Mus musculus with 10 samples.

Results

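Of the 53379 genes counted in each library, 10 make up the cytosolic heat shock genes described here. They are the small heat shock proteins Cryab, Hspb1 and Hspb8, the HSP70 genes Hspa1a, Hspa1b and Hspa8 with their larger relative Hsph1, the HSP90 genes Hsp90aa1 and Hsp90ab1, and the J-domain partner Dnajb1. The genes were chosen by symbol with earlier results of these same libraries known, so their levels and fold changes are a description and serve as no test. RNA was sequenced from cells sorted for EYFP out of the hippocampus of 5-week-old male mice, in 3 mock, 2 aversive, 2 appetitive and 3 neutral libraries. Aversive mice had received 4 foot shocks of 1.5 mA for 2 s each, appetitive mice had met a female for 1 h by the sample labels, neutral mice had been in the conditioning cage with no stimulus, and mock mice had stayed in the home cage. The study's methods list wild type C57BL/6 and Fos-CreER mice without saying which gave these libraries, and in that place give an age above 5 weeks. The tagged mice carried AAV9-c-Fos-tTA with AAV9-TRE-ChR2-EYFP, in which the c-Fos promoter drives the transactivator. A tagged cell is thus one in which that promoter was active while doxycycline was withdrawn. Mock is named an untagged control of 2 mice in those methods, although the labels describe all groups as ChR2-YFP mice with 8 mice pooled per condition. If mock was 2 mice, its 3 libraries were not 3 animals or pools of 8, and this touches every comparison with mock. The sources also differ on whether cells or nuclei were sorted, and the labels describe a digestion of all tissue with enzymes at 37 °C to single cells. No source used here states whether libraries sharing a label were prepared from separate pools, so p-values measure only the spread between these libraries, which may be technical.

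Heat shock proteins are chaperones that hold or refold damaged proteins. HSP70 proteins bind exposed hydrophobic stretches in a cycle of ATP hydrolysis that J-domain proteins start and exchange factors of the Hsph1 kind complete, HSP90 proteins mature kinases and receptors, and small heat shock proteins hold unfolded proteins without using ATP. Some of the genes are always on, such as Hspa8 and Hsp90ab1, and others, such as Hspa1a and Hspa1b, are switched on by heat shock factor 1 when cells are heated or otherwise stressed, enzymatic tissue digestion included. In the brain, Cryab (αB-crystallin) is best known from oligodendrocytes and astrocytes.

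Total counts ran from 16968588 to 67650693 per library. Levels below are in CPM, counts scaled to each library's total after TMM normalization, whose factors ran from 0.48 to 1.45. The floor of detection was set at 3 counts, worth 0.0346 to 0.235 CPM, and covers counting error only. The libraries differed strongly in ways other than their labels. Mbp alone took 30.8% of all counts in appetitive replicate 1 and 20.4% to 23.7% in mock replicates 1 and 2 and aversive replicate 1, against 0.601% to 3.37% in the other 6. Of the 19754 genes tested, 48.9% and 56.6% had at most 3 counts in the appetitive libraries, against 2.09% to 39.6% in the others. The neuron markers Rbfox3, Snap25, Syt1, Slc17a7, Camk2a and Nrgn together reached 173 to 1200 CPM outside the neutral group and 54.3 to 78.4 CPM in it. They did not all move alike. Snap25, Nrgn and Camk2a had higher means in appetitive than in neutral libraries. Syt1, Rbfox3 and Slc17a7 had lower ones, at 0.274, 0.639 and 0.666 CPM beside 18.8, 2.00 and 1.86 CPM. Choroid plexus and ependymal markers reached 21079 to 129774 CPM in the neutral libraries and 848 to 13489 CPM in the others. Ttr made up nearly all of this, with 20712 to 128762 CPM in the neutral libraries. Ttr and Folr1 were higher in every neutral library than in any other, whereas Kl, Foxj1 and Tmem212 overlapped. Tmem212 had 11.9 to 71.1 CPM in neutral libraries and 118 CPM in aversive replicate 3. The neutral libraries were also made with another kit and sequenced as 100-base pairs in place of 40-base single reads, so the neutral condition and its kit cannot be told apart.

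Cryab had the highest counted level of the 10 genes per length of exon. Divided by exon length, its median over the 10 libraries was 585 CPM per kb, and it was the highest of the 10 genes in 10 of 10 libraries. Hsp90ab1 followed with a median of 298 CPM per kb. Hspa1b, Hspa8, Dnajb1 and Hspa1a lay between 46.9 and 65.5 CPM per kb, and Hspb1, Hspb8, Hsp90aa1 and Hsph1 between 14.3 and 20.6 CPM per kb. The ranges of all genes below Hsp90ab1 overlapped one another across libraries. Of the 40-base stretches of Hspa8, Hsp90aa1, Hspb1, Hspa1b and Hspa1a, 42.0% to 68.4% also occur in other genes. The share was 14.1% for Cryab and 6.42% for Hsp90ab1. Exon lengths were not corrected for this. If shared reads went uncounted, the order favours Cryab and Hsp90ab1 over those genes. The constitutive HSP90 gene Hsp90ab1 was the steadiest of the 10, with a 2.52-fold range over all libraries. Hspa1a, Hspa1b and Hspb8 ranged over 39.6-fold, 60.3-fold and 37.2-fold, and Hsph1 over 651-fold, with 3 counts in its lowest library.

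**Figure D1:**
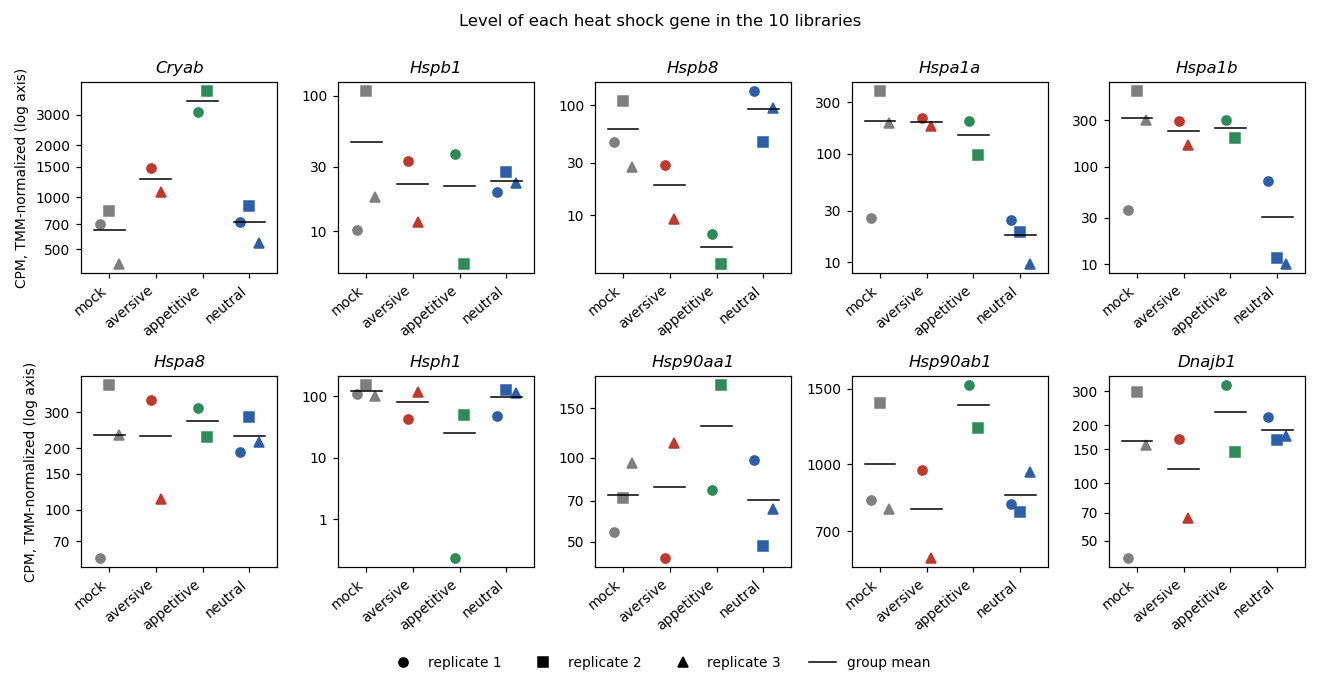
Each panel plots 1 gene, with the library's level in CPM (TMM-normalized) on a log axis that differs between panels, points shaped by replicate number and a line at the group mean. Cryab was highest in the appetitive libraries (3121 and 4118 CPM), and Hspa1a and Hspa1b were low in the neutral libraries and in mock replicate 1.

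Cryab (chromosome 9, 50751325 to 50756636, plus strand, GRCm38) encodes a small heat shock protein that keeps partly unfolded proteins soluble. It stood at 705, 838 and 412 CPM in mock replicates 1 to 3. It stood at 723, 894 and 546 CPM in neutral replicates 1 to 3. Levels were 1483 and 1080 CPM in the aversive group. In the appetitive group they were 3121 and 4118 CPM. Both appetitive libraries lay above the 8 others, both aversive libraries lay above every mock and neutral library, and mock and neutral overlapped. With total counts alone the appetitive libraries stayed highest, at 1498 and 4638 CPM, but replicate 1 was close to aversive replicate 3 (1379 CPM). Aversive and neutral overlapped. Aversive replicate 1 then had 1091 CPM and neutral replicate 2 had 1145 CPM. Group means were 652 ± 218 CPM (SD, n = 3) in mock, 721 ± 174 (SD, n = 3) in neutral, 1281 ± 285 (SD, n = 2) in aversive and 3620 ± 705 (SD, n = 2) in appetitive libraries. In bulk RNA of this kind, more cells of a type and more RNA per cell cannot be told apart.

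Cryab was 5.02-fold higher in appetitive than in neutral libraries, a log2 fold change of 2.33 (SE 0.51) in the fit over all genes. Against mock it was 5.56-fold higher, at a log2 fold change of 2.47 (SE 0.52). It was the 1 member of 10 called at an adjusted p under 0.05 in each of these comparisons, with adjusted p = 0.031 and 0.0405 by edgeR's quasi-likelihood test. Among all genes tested, 6.17% were called in appetitive minus neutral and 1.98% in appetitive minus mock, and nothing is read from the count because earlier results of these contrasts bore on the choice of genes. The log2 fold change was 1.50 (SE 0.58) from aversive to appetitive, 0.83 (SE 0.51) from neutral to aversive, 0.98 (SE 0.51) from mock to aversive and 0.15 (SE 0.46) from mock to neutral, none of them called. The median gene moved as well, at a log2 fold change of -0.91 in appetitive minus neutral, -1.45 in appetitive minus mock and -0.48 in appetitive minus aversive. Relative to that median Cryab was higher by 3.24, 3.93 and 1.98 on the log2 scale.

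The appetitive calls of Cryab were lost when single libraries were left out. Against neutral, the adjusted p was 0.0704, 0.0671 and 0.0506 without mock replicates 1, 2 and 3, 0.0597 without appetitive replicate 2, and 0.0746 and 0.106 without neutral replicates 1 and 3, while the log2 fold change stayed between 2.04 and 2.53 in all leave-one-out fits. Against mock, leaving out any 1 mock, appetitive or neutral library gave an adjusted p of 0.0563 to 0.133, at log2 fold changes of 2.06 to 2.49. Both calls were also lost with libraries scaled by total counts alone, at log2 fold changes of 1.83 and 2.21 (adjusted p = 0.0741 and 0.0650 by edgeR), and with at least 10 counts required in every library, at 1.84 and 2.02 (adjusted p = 0.0939 and 0.169 by edgeR).

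Oligodendrocyte markers moved with Cryab in part. Mog, Mag and Cldn11, taken without Mbp and Mobp, summed to 1976 and 7223 CPM in the appetitive libraries, 1980 and 1887 CPM in the aversive libraries and 706, 1050 and 1753 CPM in mock. None of the 5 oligodendrocyte markers was at 0 in any library. In the neutral libraries the sum of Mog, Mag and Cldn11 was 167, 2036 and 122 CPM, while Cryab stayed within 546 to 894 CPM there. Appetitive replicate 2 had the highest sum of Mog, Mag and Cldn11 and the highest Cryab. Appetitive replicate 1 had nearly the sum of aversive replicate 1 and more Cryab (3121 beside 1483 CPM). With Mbp and Mobp added the order differed. Appetitive replicate 1 was then highest at 769801 CPM, and appetitive replicate 2 had 20360 CPM. Aversive replicates 1 and 3 had 393889 and 12725 CPM. Neutral replicate 2 had a sum of Mog, Mag and Cldn11 above that of every mock and aversive library. Under TMM it had less Cryab than either aversive library, but with total counts alone more than aversive replicate 1 (1145 beside 1091 CPM). With Mbp and Mobp taken out of the totals, the appetitive log2 fold changes of Cryab were 2.54 against neutral and 2.51 against mock. Astrocyte markers summed to 4027 and 2316 CPM in the appetitive, 3955 and 4759 CPM in the aversive, 4121 to 13157 CPM in the mock and 163 to 338 CPM in the neutral libraries. Of the 6 astrocyte markers, Slc1a3 and Aldoc were called higher in appetitive than in neutral libraries, 14.4-fold and 11.9-fold (adjusted p = 0.0254 and 0.0191 by edgeR). The part of either cell type in the level of Cryab was not tested.

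**Figure D2:**
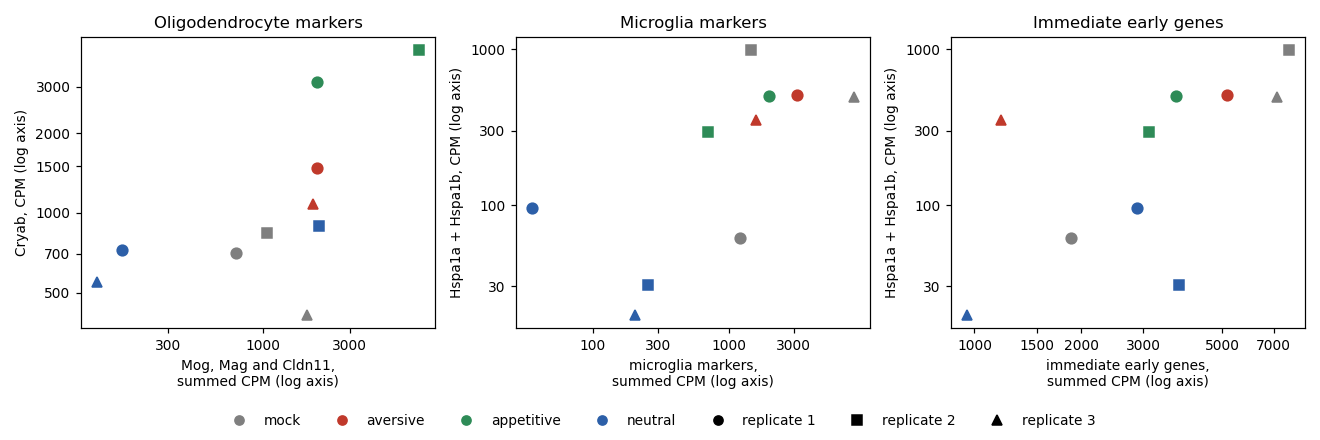
The left panel plots Cryab against the summed CPM of Mog, Mag and Cldn11, and the other panels plot Hspa1a plus Hspa1b against summed microglia markers and against summed immediate early genes, 1 point per library, all axes logarithmic. Appetitive replicate 2 sat highest on both axes of the left panel, appetitive replicate 1 stood above libraries of a similar marker sum, and the 3 neutral libraries had the lowest microglia sums (35.7 to 253 CPM).

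Over the 10 libraries, the genes most like Cryab by Pearson's r of log2(CPM + 1) were Surf1 (chromosome 2) at 0.987, Nabp2 at 0.972, Rnf7 at 0.963, Gm43942 at 0.963 and Ypel3 at 0.958. Gm43942 stayed at 0.124 to 1.41 CPM. Surf1, an assembly factor of cytochrome c oxidase, ran from 31.9 to 262 CPM. Among the other members the highest r with Cryab was 0.57 for Hsp90ab1 and the lowest was -0.77 for Hspb8. These values describe 10 libraries in which groups, kit and depth also differ.

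Cryab shares 252 bases of exon with Hspb2, which lies on the opposite strand, and 14.1% of the 40-base stretches of its transcripts also occur in Hspb2. Counting ignored strand, so reads from the shared stretch cannot be assigned by it. Hspb2, a small heat shock protein of muscle, had 0 and 1 count in the appetitive libraries, 1 and 5 in the aversive, 45, 111 and 125 in mock, and 827, 4005 and 1572 in the neutral libraries. Hspb2 made up at most 4005 counts beside 77470 of Cryab in the same library.

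Hspb8, a small heat shock protein that works with the co-chaperone Bag3, ran the other way from Cryab. It had 134, 46.1 and 94.7 CPM in the neutral libraries and 46.3, 109 and 27.2 CPM in mock. Levels were 28.5 and 9.31 CPM in the aversive group and 6.80 and 3.61 CPM in the appetitive group. Both appetitive libraries were below all 8 others, the aversive libraries were below the neutral ones, and aversive and mock overlapped. The log2 fold change was -4.14 (SE 1.14) from neutral to appetitive, -3.55 (SE 1.11) from mock to appetitive and -2.28 (SE 1.03) from neutral to aversive, with adjusted p = 0.0549, 0.107 and 0.261 by edgeR. With total counts alone the first was -4.86 and called (adjusted p = 0.0342 by edgeR), and without aversive replicate 1 the last was -3.26. Its partner Bag3 had 0.235 and 0.0523 CPM in the appetitive libraries, at or under the floor of 3 counts, and 0.400 and 34.3 CPM in the aversive libraries. Bag3 stood at 20.9 to 31.7 CPM in mock and up to 51.3 CPM in neutral libraries.

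Hspb1 (HSP27), the third small heat shock protein of the 10, showed no order by group. It had 10.2, 108 and 17.9 CPM in mock, 33.2 and 11.7 in aversive, 37.4 and 5.76 in appetitive and 19.6, 27.6 and 22.8 CPM in neutral libraries. Mock replicate 2 was the highest and appetitive replicate 2 the lowest, and all 4 groups overlapped. Log2 fold changes lay between -1.08 and -0.06, with SEs of 1.12 to 1.36. Leaving out mock replicate 2 turned that of neutral minus mock from -0.96 to 0.61 and gave 0.66 in aversive minus mock. Without appetitive replicate 1, appetitive minus neutral, minus aversive and minus mock were -2.12, -2.12 and -3.18, and without aversive replicate 1 aversive minus neutral was -0.98. Appetitive minus neutral went from -0.11 to 0.25 with DESeq2's size factors and to -1.20 with total counts alone. The pseudogene Hsp25-ps1 shares 50.6% of its 40-base stretches and drew at most 5 counts in a library.

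Hspa1a and Hspa1b, the stress-inducible HSP70 genes, were low in the neutral libraries and in 1 mock library. Hspa1a stood at 24.4, 19.2 and 9.64 CPM in neutral replicates 1 to 3 and at 25.7, 381 and 193 CPM in mock replicates 1 to 3. It stood at 215 and 181 CPM in the aversive and at 202 and 96.9 CPM in the appetitive libraries. Every neutral library was below every other library, but the highest neutral value lay just under mock replicate 1. With total counts alone, neutral replicates 1 and 2 (25.8 and 24.6 CPM) lay above mock replicate 1 (22.1 CPM). Hspa1b stood at 71.1, 11.5 and 10.0 CPM in neutral, 35.7, 605 and 305 CPM in mock, 293 and 170 CPM in aversive and 303 and 197 CPM in appetitive libraries. Here neutral replicate 1 was above mock replicate 1, so neutral and mock overlapped, and both neutral and mock replicate 1 stayed below every aversive and appetitive library. The means of Hspa1a were 17.8 ± 7.50 CPM (SD, n = 3) in neutral, 198 ± 23.7 (SD, n = 2) in aversive and 149 ± 74.1 (SD, n = 2) in appetitive libraries. The spread was widest in mock, with an SD of 178 CPM (n = 3).

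Against neutral, the log2 fold change of Hspa1a was 3.48 (SE 0.97) in aversive and 3.07 (SE 0.96) in appetitive libraries, and that of Hspa1b was 2.91 (SE 1.12) and 3.02 (SE 1.12). From mock to neutral the values were -3.49 (SE 0.93) for Hspa1a and -3.35 (SE 1.08) for Hspa1b. None was called by edgeR, with adjusted p between 0.0725 and 0.209. Without neutral replicate 1, Hspa1b was 4.44 and 4.56 in aversive and appetitive minus neutral and -4.88 in neutral minus mock, and without mock replicate 2 the last was -2.58. Between aversive, appetitive and mock libraries the pair had log2 fold changes of -0.44 to 0.11 with SEs of 0.94 to 1.21.

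The constitutive Hspa8, the everyday HSP70 of the cytosol, did not share the low neutral level. It stood at 192, 284 and 214 CPM in neutral, 58.0, 409 and 233 CPM in mock, 346 and 113 CPM in aversive and 315 and 228 CPM in appetitive libraries. All groups overlapped, and mock replicate 1 was the lowest of the 10. Log2 fold changes between groups lay between -0.03 and 0.24 with SEs of 0.72 to 0.88, and that of appetitive minus neutral was -0.44 with libraries scaled by total counts alone and -0.12 without appetitive replicate 1. Without aversive replicate 1, aversive minus neutral was -1.01 and appetitive minus aversive 1.15. The summed CPM of Hspa1a and Hspa1b divided by that of Hspa8 was 0.0918 to 0.497 in the neutral libraries and 1.06 to 3.11 in the 7 others, mock replicate 1 being the lowest of these. This ratio does not depend on the scaling of libraries. Reads shared with other genes may be missing from both of its sides, and 42.0% of the 40-base stretches of Hspa8 are shared.

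**Figure D3:**
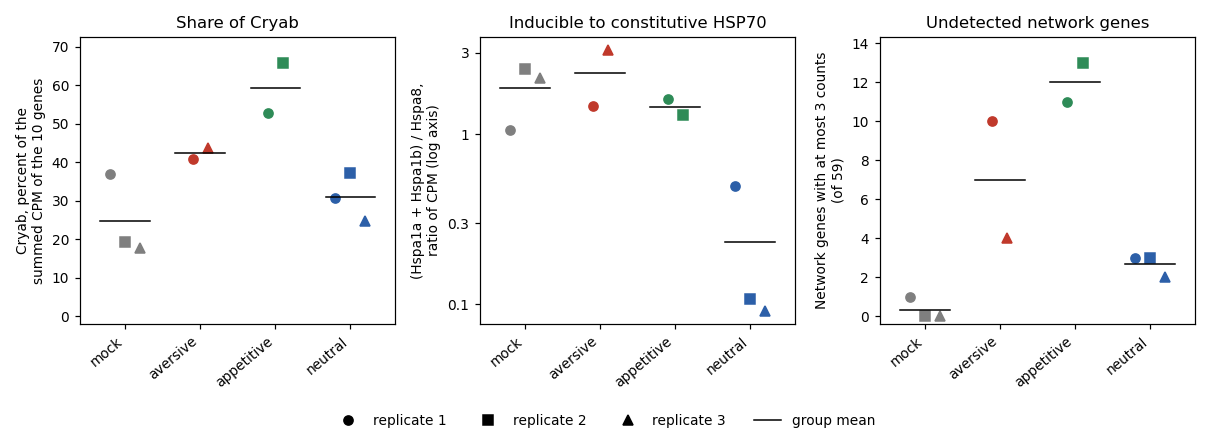
The panels show, per library, Cryab as a percent of the summed CPM of the 10 genes, the ratio of Hspa1a plus Hspa1b to Hspa8 (log axis), and the number of the 59 further chaperone genes with at most 3 counts; lines are group means. Cryab made 52.8% and 65.9% of the sum in the appetitive libraries and 17.7% to 43.8% elsewhere, and the ratio was below 0.5 only in the 3 neutral libraries.

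Other cell types and immediate early genes moved with Hspa1a and Hspa1b in part. The summed microglia markers were 35.7 to 253 CPM in the neutral libraries, with Cx3cr1 at 0 in neutral replicate 1, and 707 to 8356 CPM in the 7 others. The summed astrocyte markers were 163 to 338 CPM in the neutral libraries, with Aqp4 at 0 in neutral replicate 1, and 2316 to 13157 CPM in the others. Mock replicate 1, low in Hspa1a and Hspa1b, had 1216 CPM of microglia markers and the highest astrocyte sum of the 10 libraries. Immediate early genes such as Fos, Junb and Egr1 summed to 1872 CPM in mock replicate 1 and to 7728 and 7167 CPM in mock replicates 2 and 3. Aversive replicate 3 had a sum of 1189 CPM beside 351 CPM of Hspa1a plus Hspa1b, and neutral replicate 2 had 3779 CPM beside 30.7 CPM. Within this list, Atf3 and Fosb were lower in every neutral library than in any other, while the remaining genes overlapped. Atf3 had 7.01 to 33.1 CPM in neutral and 95.8 to 1092 CPM in the other libraries. It was called 32.4-fold higher in appetitive than in neutral libraries (adjusted p = 0.0329 by edgeR). The part of these cell types and genes in the HSP70 levels was not tested.

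The genes most like Hspa1a over the 10 libraries were Hspa1b (r = 0.957), the chemokine gene Ccl3 (0.933), the macrophage gene Cd68 (0.908), Gm7407 (0.908) and Zfp36 (0.899), which encodes an RNA-binding protein that destabilizes cytokine mRNAs. For Hspa8 they were Dnajb1 (0.911), the antioxidant gene Gpx1 (0.818), Jund (0.801), Herpud1 (0.795) and Ostf1 (0.769). Hspa1a and Hspa8 had an r of 0.39. Each value is over 10 libraries and is a description.

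Hspa1a (chromosome 17, 34969190 to 34972156) and Hspa1b (chromosome 17, 34956436 to 34959238) are neighbours on the minus strand, and 61.3% of the 40-base stretches of Hspa1a also occur in Hspa1b. How the authors' counting split reads between them is not given in the sources used here, so the values of either gene alone are uncertain. The ratio of Hspa1b to Hspa1a ran from 0.598 to 2.91, and its ends were both neutral libraries. Their sum, 19.7 to 95.5 CPM in neutral, 61.4 to 986 CPM in mock, 351 and 508 CPM in aversive and 505 and 294 CPM in appetitive libraries, avoids the split. Hspa1a also shares 564 bases of exon with Gm20481 on the opposite strand.

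The promoters of the pair are almost the same. The 250 bases before the RefSeq start (GRCm38.p6) differed at 3 positions, and each held 1 heat shock element of 2 facing units, written GAANNTTC or TTCNNGAA, where N is any base. Both motifs read the same on either strand. The stretch around the match is shown for the pair, named above as stress-inducible HSP70 genes. The Hspb1 stretches are shown because Hspb1 holds such elements too and showed no order by group, and the match in Hsph1 is not shown. Capitals mark the bases of a match, including the end of the neighbouring match in Hspb1, and each line runs 5′ to 3′ on the strand of the gene.
Hspa1a, chr17:34972237-34972276, minus strand: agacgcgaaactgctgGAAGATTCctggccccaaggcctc
Hspa1b, chr17:34959319-34959358, minus strand: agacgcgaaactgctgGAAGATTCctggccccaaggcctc
Hspb1, chr5:135887786-135887825, plus strand: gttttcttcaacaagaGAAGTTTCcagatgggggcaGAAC
Hspb1, chr5:135887806-135887845, plus strand: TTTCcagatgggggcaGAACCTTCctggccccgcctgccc
The match ended 97 bases before the start in Hspa1a and in Hspa1b, and 110 and 90 bases before it in Hspb1. RefSeq windows were matched for 6 of the 10 genes, and 4 of these 6, Hspa1a, Hspa1b, Hspb1 and Hsph1, held at least 1 match, while Dnajb1 and Hspb8 held none. The 4 of 6 genes (66.7%) stand beside 14.5% of all 27025 genes with a window, and by window 5 of 8 (62.5%) stand beside 12.8% of all 32851 of the same length. The windows are not independent, since Hspa1a and Hspa1b are near copies and Hsph1 has overlapping windows. A longer element with a further unit at the same spacing was in 0 of the 8 windows and in 0.466% of all windows. A match describes the letters in the window and no binding was measured.

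Hsph1 (HSP110), an exchange factor for HSP70, was nearly absent from 1 appetitive library. It stood at 107, 153 and 100 CPM in mock, 43.2 and 116 CPM in aversive and 48.2, 126 and 113 CPM in neutral libraries. In the appetitive group replicate 2 had 50.4 CPM and replicate 1 had 3 counts, or 0.235 CPM. Appetitive replicate 2 lay within the neutral range, and both appetitive libraries lay below every mock library. The log2 fold change of appetitive minus neutral was -1.92 (SE 1.42) with both libraries, -1.03 without appetitive replicate 1 and -8.74 without appetitive replicate 2 (adjusted p = 0.0117 by edgeR). That of appetitive minus mock was -2.24, and -1.47 without appetitive replicate 1, neither of them called, and -9.18 without appetitive replicate 2 (adjusted p = 0.0197 by edgeR).

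Dnajb1 (HSP40), which hands substrates to HSP70, varied much as Hspa8 did. It stood at 40.6, 297 and 159 CPM in mock, 170 and 65.7 CPM in aversive, 325 and 146 CPM in appetitive and 222, 167 and 176 CPM in neutral libraries. All groups overlapped, and the lowest level was again in mock replicate 1. Its log2 fold changes lay between -0.67 and 1.00 with SEs of 0.74 to 0.92, and appetitive minus neutral turned from 0.32 to -0.48 when libraries were scaled by total counts alone.

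Hsp90ab1, the constitutive HSP90, stood at 827, 1386 and 788 CPM in mock, 970 and 606 CPM in aversive, 1530 and 1217 CPM in appetitive and 811, 777 and 961 CPM in neutral libraries. Under TMM the appetitive libraries lay above the aversive and neutral ones and overlapped mock because of mock replicate 2. With total counts alone appetitive replicate 1 had 734 CPM and replicate 2 had 1371 CPM. Replicate 1 then lay below every neutral library (856 to 1193 CPM) and below aversive replicate 3 (774 CPM). The log2 fold change of appetitive minus neutral was 0.69 (SE 0.50) and was 0.05 with total counts alone. Hsp90aa1, the more inducible HSP90, stood at 54.1, 71.6 and 95.3 CPM in mock, 43.7 and 113 CPM in aversive, 76.8 and 182 CPM in appetitive and 98.3, 48.4 and 65.7 CPM in neutral libraries. All groups overlapped, and its appetitive minus neutral value of 0.87 (SE 0.75) was 0.05 without appetitive replicate 2. The pseudogene Gm12346 shares 44.1% of the 40-base stretches of Hsp90aa1. The genes most like Hsp90ab1 were Bnip3 (r = 0.882), Rbm8a (0.880), Tmem243 (0.879), Cfdp1 (0.874) and Ube2a (0.870).

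**Figure D4:**
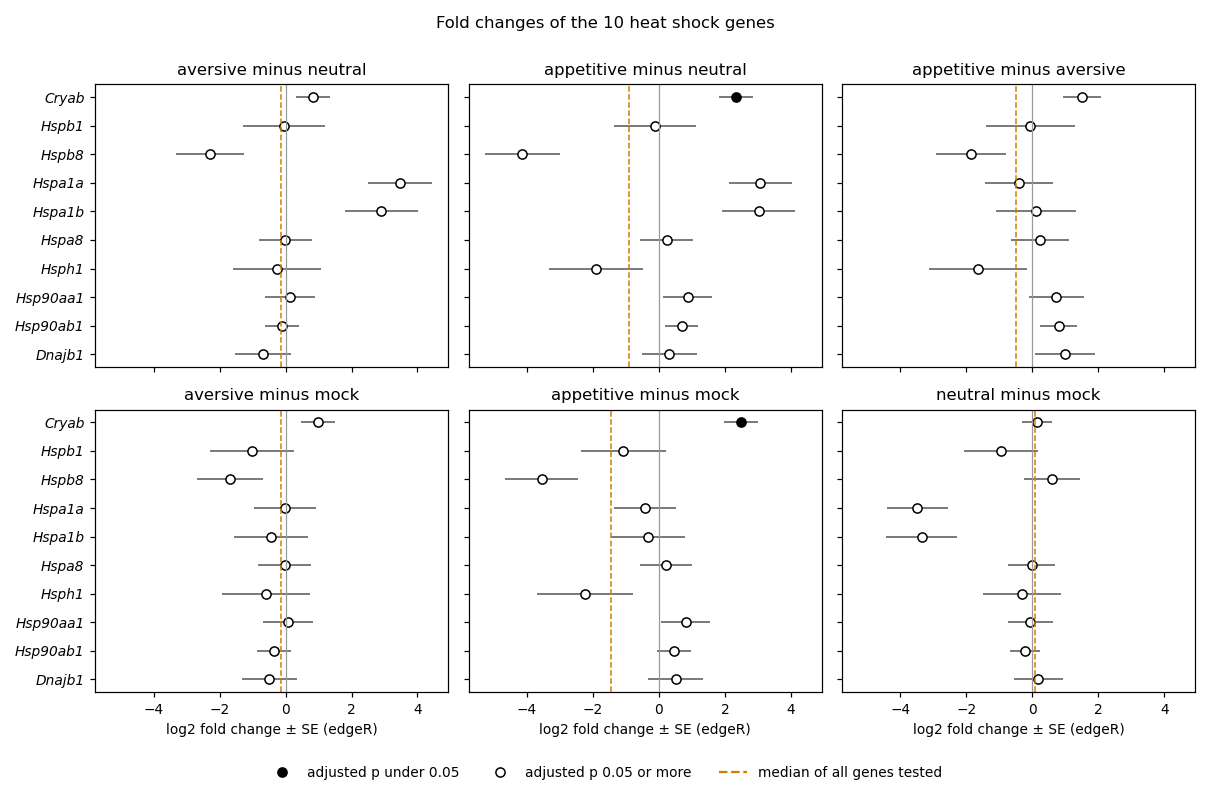
Each panel shows the log2 fold changes of the 10 genes with their SE in 1 comparison, filled where the adjusted p of edgeR was under 0.05, with a dashed line at the median of all 19754 genes tested. Cryab was the 1 filled point in appetitive minus neutral (2.33) and in appetitive minus mock (2.47).

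In the 4 other comparisons edgeR called 0 of the 10 members. In aversive minus neutral 3 members had an unadjusted p under 0.05, as had 19.1% of all genes, and 0.0405% of all genes were called. In appetitive minus aversive there was 1 such member beside 20.0% of all genes, with 1.8% called. In aversive minus mock there were 0 beside 9.96%, with 0% called. In neutral minus mock there were 2 beside 13.5%, with 0.0861% called. DESeq2, run on the same counts, called more genes. It called Hspa1a in aversive minus neutral (16.2% of all genes called), Cryab, Hspb8, Hspa1a and Hspa1b in appetitive minus neutral (29%), Cryab and Hspb8 in appetitive minus mock (28%), Hspa1a in neutral minus mock (7.61%), and 0 members in appetitive minus aversive (24.1%) and aversive minus mock (7.96%). The comparisons share control libraries and are not independent of each other.

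Around the 10 genes, 59 further chaperone and heat shock genes were counted from lists of regulators, other small heat shock proteins, other HSP70 genes, J-domain partners, exchange factors and BAG proteins, HSP90 co-chaperones, the chaperonin CCT, mitochondrial chaperones and other targets of heat shock factors. All 59 passed the filter on low counts. In appetitive minus neutral 3 of them fell and 0 rose, where 5.23% of all genes fell, and their median log2 fold change was -0.04 beside -0.91 for all genes. EdgeR called 0 of the 59 in the other 5 comparisons, with 4 in aversive minus neutral, 4 in appetitive minus aversive, 5 in aversive minus mock, 9 in appetitive minus mock and 7 in neutral minus mock at an unadjusted p under 0.05. Of all genes, 19.1%, 20.0%, 9.96%, 23.8% and 13.5% had such a p in the same order. DESeq2 called 4, 4, 2, 6 and 2 of the 59 in that order, and 10 in appetitive minus neutral. Of all genes, it called 16.2%, 24.1%, 7.96%, 28% and 7.61% in that order, and 29% in appetitive minus neutral.

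Of the 3 that fell, Serpinh1 encodes the collagen chaperone HSP47. It stood at 55.7 and 21.4 CPM in appetitive and 300.2, 557 and 393 CPM in neutral libraries, with adjusted p = 0.0465 by edgeR and a log2 fold change of -3.43 (SE 0.89). Mural and fibroblast markers summed to 54.6 and 43.6 CPM in the appetitive libraries and to 48.3, 1697 and 353 CPM in neutral replicates 1 to 3, with Dcn at 0 in at least 1 library of both groups. Serpinh1 was at 300.2 CPM in neutral replicate 1, where these markers summed to 48.3 CPM. Bag2, an exchange factor that blocks the ubiquitin ligase CHIP, had 0 counts in both appetitive libraries and 9.46, 16.2 and 47.6 CPM in neutral libraries. It was at least 104-fold lower in appetitive libraries, taking 3 counts in a library as the floor (adjusted p = 0.0366 by edgeR). Hspb2, described beside Cryab, was the last of the 3 (adjusted p = 0.0317 by edgeR). Its pooled level was 896 times as high in neutral as in appetitive libraries, with an exact 95% interval of 161 to 35403 that covers counting error only, and it overlaps Cryab. Leaving out any 1 mock or neutral library took the count of called genes from 3 to 0, and leaving out appetitive replicate 2 took it to 12. Over all alternatives the log2 fold change of Serpinh1 stayed between -4.39 and -2.99, and those of Bag2 and Hspb2 stayed negative.

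**Figure D5:**
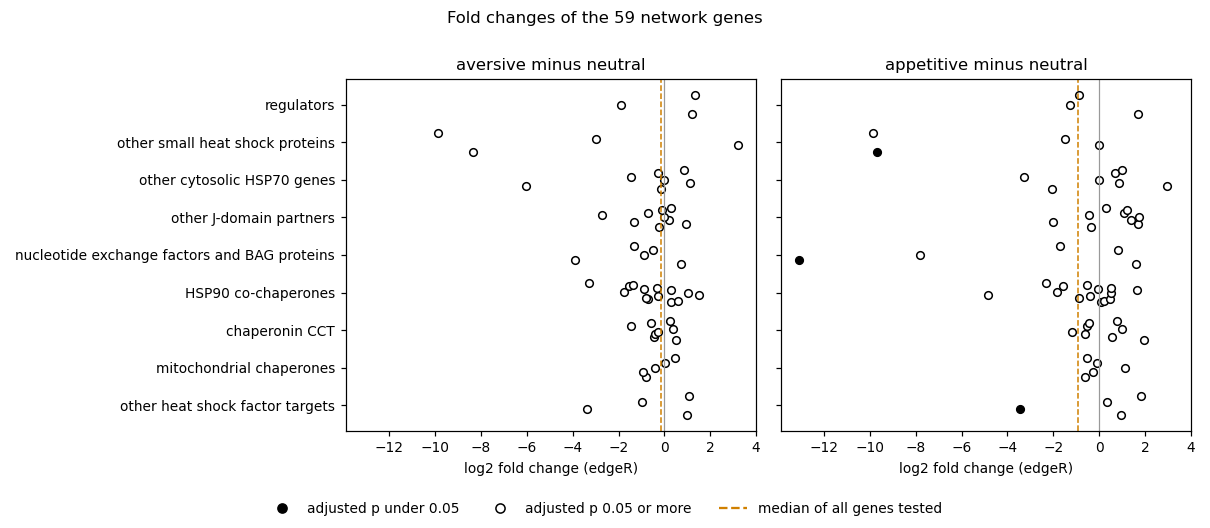
Each point is the log2 fold change of 1 of the 59 further genes, in rows by list, for aversive minus neutral and appetitive minus neutral, with a dashed line at the median of all genes tested. The 3 filled points, Bag2, Hspb2 and Serpinh1, are the ones called by edgeR.

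The regulators differed in level. Hsf1, the main heat shock factor, stood at 33.2, 56.5 and 41.7 CPM in mock, 22.0 and 58.8 CPM in aversive, 31.1 and 93.9 CPM in appetitive and 196, 99.4 and 157 CPM in neutral libraries. All 3 neutral libraries were above the 7 others, the reverse of the order of Hspa1a under TMM. Hsf2, a second factor, stayed between 0 and 22.9 CPM, with 0 counts in aversive replicate 1. The HSP90 adaptor Stip1 was also highest in the neutral libraries, at 203 to 261 CPM, and had 3.21 CPM in appetitive replicate 1, where Hsph1 had 3 counts, beside 148 CPM in appetitive replicate 2. It stood at 73.5 and 82.2 CPM in aversive and 90.4 to 119 CPM in mock libraries. Hspb6, a small heat shock protein of muscle, had 75.6 to 137 CPM in neutral, 4.74 to 10.4 CPM in mock, 1 count and 29.1 CPM in aversive replicates 1 and 3, and 81.0 and 0 CPM in appetitive replicates 1 and 2.

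Dnaja1, a J-domain partner of Hspa8, had 53.7 to 59.6 CPM in neutral, 62.7 to 151 CPM in mock, 58.9 and 37.3 CPM in aversive and 12.8 and 74.5 CPM in appetitive libraries. Hspa4, a relative of Hsph1, had 28.2 to 35.6 CPM in neutral, 53.0 to 91.5 CPM in mock, 38.0 and 16.3 CPM in aversive and 10.8 and 95.2 CPM in appetitive libraries. The mitochondrial chaperonin genes Hspd1 and Hspe1 had 24.8 to 42.1 and 11.3 to 33.7 CPM in neutral, 27.6 to 34.2 and 11.3 to 15.9 CPM in mock, 23.6 to 31.2 and 20.2 to 32.6 CPM in aversive, and 19.6 to 138 and 21.3 to 25.9 CPM in appetitive libraries. The appetitive libraries lacked the most genes of these lists, as of all genes tested. Of the 59, 11 and 13 had at most 3 counts in appetitive replicates 1 and 2 (18.6% and 22.0%). Of all genes tested, 56.6% and 48.9% did so. Aversive replicates 1 and 3 had 10 and 4 (16.9% and 6.78%), beside 39.6% and 22.6% of all genes tested. Neutral libraries had 2 to 3, beside 17.5% to 23.3%, and mock libraries 0 to 1, beside 2.09% to 17.2%. Among the 10 members, only Hsph1 was at or under 3 counts in any library.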

How the data were processed

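For each of the 10 libraries, the authors deposited raw counts of 53379 Ensembl genes. They had aligned reads cut to their first 40 bases to mm10 (STAR) and assigned them to genes with featureCounts, ignoring strand. Versions of these tools are not given in the sources used here, and mapping could not be repeated from counts. No column of per-sample values was left out. Groups came from the sample labels, and symbols and exon lengths from GENCODE M21, which named 53274 of the identifiers.

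In R 4.3.3, edgeR 4.0.16 was used with TMM normalization and the filterByExpr filter, which kept 19754 genes, and 1 quasi-likelihood model of 4 groups was fitted to the 10 libraries (common coefficient of variation 122%). P-values are two-sided and adjusted over all genes tested by the Benjamini-Hochberg method, at a threshold of 0.05, and SEs were derived from the F statistics. The fit was tested on simulated data. Alternatives were DESeq2 1.42.0, other scalings, other filters, fits of fewer groups, a replicate block and leaving out each library. The members and lists were chosen with earlier results of these data known. All members were named, as were 10 fixed genes of the wider lists, those called by edgeR, the 5 genes most like each of Cryab, Hspa1a, Hspa8 and Hsp90ab1, and leading markers. Stretches shared between genes were counted over all GENCODE M21 transcripts. Promoter sequences came from RefSeq (GRCm38.p6). Of the oligodendrocyte markers, 1 gene is not reported here and was left out of the sums.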

Additional observations from a re-analysis of the deposited data

How the results depend on the processing

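Counts of called genes depended on the processing more than fold changes did, as did the share of all genes called, and the causes were not tested. No called fold change of a member or of Bag2, Hspb2 or Serpinh1 changed sign in any alternative. The called marker genes were not followed through the alternatives. With DESeq2, 1 member was called in aversive minus neutral, 4 in appetitive minus neutral, 2 in appetitive minus mock and 1 in neutral minus mock. Of the 59 wider genes, it called 4, 10, 6 and 2 in the same order, 4 in appetitive minus aversive and 2 in aversive minus mock. Of all genes, it called 16.2%, 29%, 28% and 7.61% in the same order, 24.1% in appetitive minus aversive and 7.96% in aversive minus mock. With no filter, members called were 2 in aversive minus neutral, 3 in appetitive minus neutral and 2 in neutral minus mock (2.45%, 7.19% and 1.47% of all genes), and wider genes 2 in appetitive minus aversive and 2 in appetitive minus mock (3.6% and 3.19%). With at least 10 counts in every library, 1 wider gene was called in appetitive minus neutral (3.43% of all genes) and 0 members in appetitive minus mock (0.172%), and with total counts alone 0 members in appetitive minus mock (1.97%). In appetitive minus neutral both settings left 1 member called, Hspb8 in place of Cryab. With the compared groups alone, appetitive minus neutral had 0 members and 0 wider genes (0% of all genes) and appetitive minus mock had 5 wider genes (21.8%). Without the mock group, appetitive minus neutral had 0 of each (0%).

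The replicate number as a block (replicate block) gave 0 members and 0 wider genes in every comparison, with 0.37% of all genes called in appetitive minus neutral and 0% in the others, and adjusted p = 0.0856 and 0.132 by edgeR for Cryab in appetitive minus neutral and minus mock. The labels tie no number to a shared batch, and the study's statement that batch effects were controlled names no libraries. Deviations of same-numbered mock and neutral libraries from their group means correlated across genes at 0.20, 0.11 and 0.03, and neutral replicate 3 correlated better with mock replicate 2 (0.04) than with its own number, so the numbers were not taken to pair the libraries. Leaving out 1 library at a time, members called ranged from 0 to 2 in appetitive minus neutral, 0 to 1 in appetitive minus aversive and 0 to 1 in appetitive minus mock. Wider genes ranged from 0 to 1 in aversive minus neutral, 0 to 12 in appetitive minus neutral, 0 to 7 in appetitive minus aversive and 0 to 8 in appetitive minus mock. Of all genes, these fits called 0% to 1.9%, 0.358% to 12.1%, 0% to 6.16% and 0% to 8.04% in the same 4 comparisons. The 12, 7 and 8 wider genes and the member in appetitive minus aversive came without appetitive replicate 2 (9.31%, 6.16% and 6.01% of all genes), which leaves appetitive replicate 1 alone to stand for its group with the spread of the others. The 2 members in appetitive minus neutral came without either aversive library. As alternatives chosen after seeing the data, leaving out mock replicate 1 and appetitive replicate 1 together gave 0 members in appetitive minus neutral and 0 in appetitive minus mock, and leaving Mbp and Mobp out of the totals kept the count at 1 in both. For the members, an alternative fold change was counted as kept if it moved by less than the SD of log2(CPM + 1) within the compared groups. Whether it stayed called did not enter, so Cryab values that lost their call were counted as kept. For Bag2, Hspb2 and Serpinh1 it was counted as kept if sign and call stayed. By these rules 1124 of 1222 alternative values were kept. The first rule is wide for genes with a large spread, such as Hsph1. With 2 libraries in each of the aversive and appetitive groups, the spread within them rests on 1 difference, and levels under 3 counts cannot be ranked against each other.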
